A study of Mus musculus with 11 samples.

Results

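Retinoic acid metabolism and dorsoventral patterning were followed through 10 genes in the retina of mice with and without Nrl. The genes were taken by symbol from the deposited mRNA table: the retinaldehyde dehydrogenases Aldh1a1, Aldh1a2 and Aldh1a3, the retinoic acid hydroxylases Cyp26a1, Cyp26b1 and Cyp26c1, the dorsal T-box genes Tbx2 and Tbx5, and the ventral genes Vax2 and Ephb2. All 10 were found among 23284 genes. Retinas were taken at postnatal day 21 from wild-type mice (5 libraries) and from mice labelled Nrl knock-out (6 libraries). No treatment, strain, sex or further allele is given in the labels. Nrl is the leucine zipper factor that directs rod fate, and a retina without it forms cells with features of short-wavelength cones in place of rods. The labels do not say how many animals gave a library or whether replicates were separate animals, so p-values measure only the spread between these samples.

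Retinoic acid is made from retinaldehyde by the Aldh1a enzymes, cleared by the Cyp26 enzymes, and read by nuclear receptors of the Rar and Rxr families. In the embryonic mouse eye Aldh1a1 marks the dorsal and Aldh1a3 the ventral retina, and Cyp26a1 and Cyp26c1 are known from a horizontal band between them. The T-box factors act dorsally downstream of BMP4, while the homeobox factor VAX2 acts ventrally and favours Ephb2 there. In the adult mouse the same axis is known for the unequal spread of the cone opsins.

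Values are read counts per gene that the authors divided by a size factor for each library, called normalized counts here. They are not scaled to gene length. Libraries held between 16126210 and 20685840 reads in genes in wild type and between 14907613 and 19877314 in the knock-out. Nrl stood at 37017 ± 1947 normalized counts in wild type (SD, n = 5) and at 51.7 ± 5.1 in the knock-out (SD, n = 6). The rod markers together ranged from 411397 to 472070 in wild type and from 1535 to 2018 in the knock-out, and Müller glia and amacrine markers were present in both. The least deeply sequenced library of either genotype (wild-type replicate 1, knock-out replicate 2) was the highest of its genotype on the second principal component, at 26.5 and 19.0. The next values were 1.7 (wild-type replicate 2) and 10.2 (knock-out replicate 4), so the former stood further apart. In bulk retina, fewer cells of a type and less RNA per cell cannot be told apart.

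Of the 10 genes, 8 had at least 10 normalized counts in at least 5 libraries and were tested with all 14584 genes that met this filter. By limma with Benjamini-Hochberg adjustment at 0.05, 3 of the 8 were called: Vax2 was lower in the knock-out, and Cyp26a1 and Cyp26c1 were higher. Of all tested genes, 46.3% were called, 23.6% higher and 22.7% lower, so 3 of 8 is near the share of the whole table. The groups did not overlap for Vax2 and Cyp26a1, against 30.9% of all tested genes. Aldh1a2 and Aldh1a3 did not meet the filter and are described by their reads. The filter bears on the count of calls. Cyp26c1 met it mainly through its knock-out libraries, since only replicate 4 of wild type reached 10. Aldh1a3 passed 10 in 4 libraries, all of wild type. Without the filter limma called 4 of the 10 genes, 2 higher and 2 lower. Per kilobase of exon, Vax2 had the highest level of the 10 in wild type (419 ± 25 normalized counts per kilobase), then Tbx2 (299 ± 38) and Aldh1a1 (234 ± 25). In the knock-out the order at the top was Tbx2 (279.8 ± 42.7), Aldh1a1 (235 ± 23) and Vax2 (187 ± 8). Tbx2 and Aldh1a1 were not apart beyond their spread there. Ephb2 followed at 59.5 and 62.6, and the others, Tbx5 among them (16.7 and 15.9), were at 23.6 or less.

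**Figure D1:**
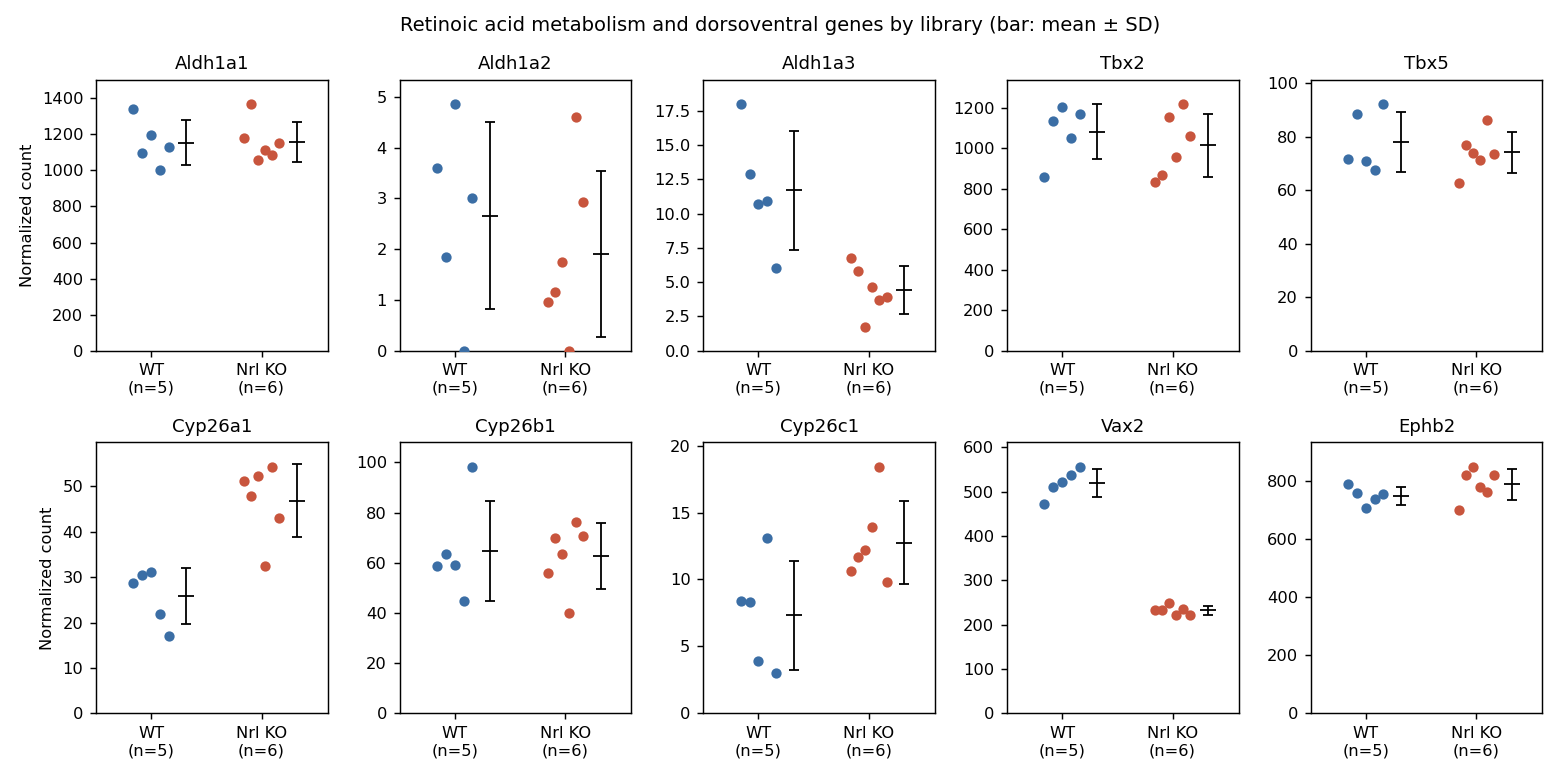
Normalized counts (y axis, linear, from 0) of the 10 genes in each of 5 wild-type (blue) and 6 Nrl knock-out (red) libraries, with mean ± SD beside the points. Knock-out libraries of Vax2 lie between 222 and 248, below every wild-type library, and those of Cyp26a1 between 32.4 and 54.3, above every wild-type library.

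The ventral genes came apart. Vax2, the ventral homeobox gene, stood at 473, 509.97, 523, 538 and 556 normalized counts in wild-type replicates 1 to 5. In the knock-out its lowest, median and highest values were 222, 234 and 248. Every knock-out library lay below every wild-type library, and the knock-out values were close together, with an SD of 4.12% of the mean where read counting alone gives 6.43%. The fall was 1.16 on the log2 scale of normalized count + 1 (log2 fold change -1.16, SE 0.06, limma adjusted p = 1.16e-11), which is 2.23-fold. Of all tested genes, 7.77% were called with a change of at least 2-fold, 5.17% higher and 2.6% lower. Dropping the pair of least deep libraries gave -1.19 for Vax2, and scaling libraries to their total count gave -1.02.

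Ephb2, which encodes a receptor that steers ventral ganglion cell axons, stood at 791, 759, 706, 739 and 755 in wild type. Its knock-out libraries ran from 699 through a median of 801 to 848. The genotypes overlapped, and the difference was not called (0.07, 95% interval -0.04 to 0.19, adjusted p = 0.309). With libraries scaled to their total it was called higher (0.21, adjusted p = 0.00275), a setting that shifts the median of all tested genes from -0.01 to 0.13. Within libraries, the log2 ratio of Ephb2 to Vax2 reads went from 0.53 ± 0.13 (SD, n = 5) to 1.76 ± 0.11 (SD, n = 6). No knock-out library overlapped a wild-type library in that ratio, which does not depend on scaling.

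Vax2 has an antisense gene at its 5′ end, and the table holds it as Vax2os1 and Vax2os2, which RefSeq lists as older names of the long non-coding RNA gene Vax2os on chromosome 6. Vax2os1 stood at 2064, 2427, 2874, 2518 and 2882 normalized counts in wild type. In the knock-out it ran from 108 through 129.7 to 168. The log2 fold change was -4.25 (SE 0.13, limma adjusted p = 2.24e-12). Vax2os2 went from 540.4 ± 55.5 to 9.03 ± 4.03, a log2 fold change of -5.87 (SE 0.26, adjusted p = 5.05e-11). It met the filter mainly through its wild-type libraries. Both antisense transcripts thus differed by more than Vax2 itself, though the differences between these folds were not tested. In the GENCODE M21 annotation the gene spans overlap by 938 bases on opposite strands, and their exons share 0 bases. The labels call the reads stranded, but how strand was used in counting is not given here, so whether antisense reads took part in the Vax2 difference was not tested.

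Other genes around Vax2 moved little or had few reads. Tex261, which follows on the far side, fell by 0.27 (1004 ± 59 to 835 ± 49, adjusted p = 0.0004), or by 0.13 with libraries scaled to their total. Ankrd53 stood at 55.2 ± 11.6 and 43.3 ± 6.5 and was not called. It was called lower when wild-type replicate 1 was left out (-0.44, adjusted p = 0.0263), and when the pair of least deep libraries was (-0.43, adjusted p = 0.04). Cd207, which encodes langerin and was below the filter, had 3, 8, 13, 7 and 11 reads in the wild-type libraries, against 0, 0, 0, 0, 1 and 1 in those of the knock-out. Without the filter it was called lower (limma adjusted p = 2.62e-06). Atp6v1b1 had 1 to 6 reads in each library and Clec4f is listed at 0 in all 11.

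**Figure D2:**
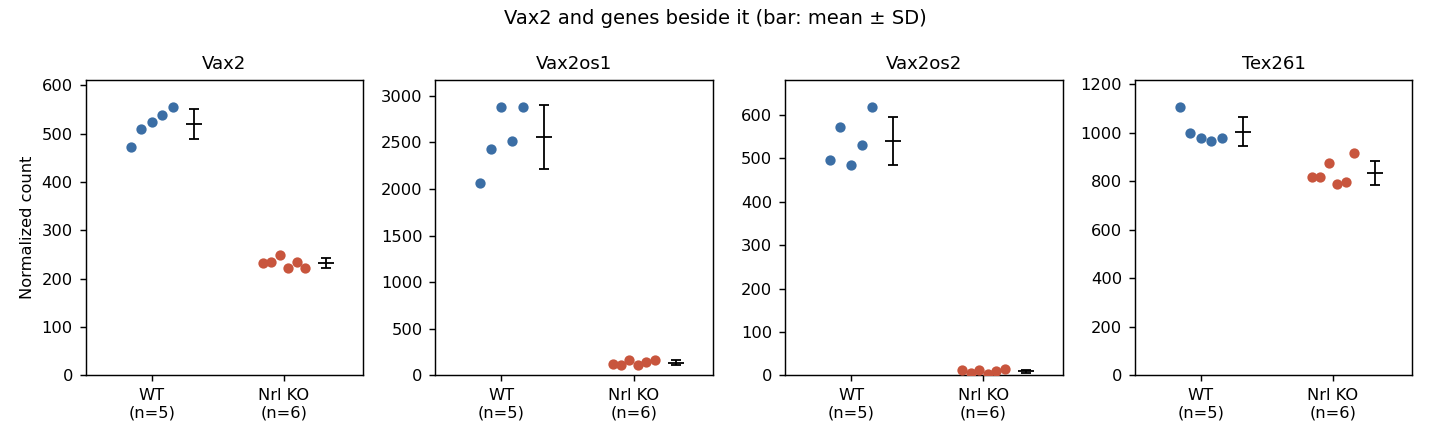
Normalized counts (y axis, linear, from 0) of Vax2, its antisense transcripts Vax2os1 and Vax2os2, and the nearby gene Tex261 in 5 wild-type and 6 Nrl knock-out libraries, with mean ± SD. Vax2os1 lies between 108 and 168 in the knock-out and between 2064 and 2882 in wild type, while Tex261 differs by 0.27 on the log2 scale.

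Neither dorsal gene was called. Tbx5, the dorsal T-box gene that opposes ventral identity, stood at 71.9, 88.4, 70.9, 67.6 and 92.1 normalized counts in wild type. Its knock-out values ran from 62.7 through 73.7 to 86.4, inside the spread of wild type at all but the lowest library. The difference was -0.07 (95% interval -0.32 to 0.18, limma adjusted p = 0.663), and the interval spans knock-out levels from 0.80 to 1.13 times those of wild type. Tbx2, a related dorsal factor whose zebrafish relative is needed for ultraviolet cones, stood at 858, 1133, 1202, 1052 and 1168 in wild type. Its knock-out values ran from 833 through 1008 to 1217. The difference was -0.10 (95% interval -0.33 to 0.14, adjusted p = 0.505). Both signs turned with libraries scaled to their total (0.06 and 0.04, neither called). Tbx2 varied far more between libraries than counting gives, with SDs of 12.7% (wild type) and 15.2% (knock-out) of the mean, where counting alone gives 3.07% in each. The log2 ratio of Tbx5 to Vax2 reads went from -2.74 ± 0.19 to -1.65 ± 0.15, with no overlap between genotypes.

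The synthesis enzymes were dominated by Aldh1a1. Divided by exon length, Aldh1a1 gave 98.5% ± 0.4 of the summed level of the Aldh1a genes in wild type, against 99.2% ± 0.3 in the knock-out. Aldh1a1 stood at 1341, 1095, 1195, 1005 and 1129.6 normalized counts in wild type. Its knock-out values ran from 1056 through 1133 to 1367, so the groups overlapped. The difference was 0.01 (95% interval -0.14 to 0.16, adjusted p = 0.931), and the interval spans 0.905 to 1.119 times the wild-type level. Leaving out wild-type replicate 2 or 4 or knock-out replicate 2 turned the sign (-0.04 to -0.01), with no call.

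Aldh1a3, the ventral enzyme of the embryo, was near the limit of detection. It had 15, 14, 11, 10 and 6 reads in the wild-type libraries, and 7, 5, 2, 5, 4 and 4 reads in those of the knock-out, which is 11.7 ± 4.3 and 4.43 ± 1.76 normalized counts. Only wild-type replicate 5 fell within the knock-out range. Without the low-value filter limma called it lower (-1.23, SE 0.31, adjusted p = 0.00475). So did edgeR's quasi-likelihood test on the reads of all genes (-1.38, adjusted p = 0.00394), an alternative that was not planned. In the authors' deposited table the log2 fold change of Aldh1a3 was -1.10 with an adjusted p of 0.00531. Aldh1a2, known from the tissue around the embryonic eye, had 13 reads over all wild-type and 12 over all knock-out libraries. Wild-type replicate 4 and knock-out replicate 4 had no read of it, which allows up to 3.27 and 2.78 normalized counts. At that depth no difference was detectable.

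Of the 3 clearing enzymes, 2 were called higher, beside 23.6% of all tested genes, and the call of Cyp26c1 depended on single libraries. Cyp26a1, the retinoic acid hydroxylase that is itself induced by retinoic acid, stood at 28.8, 30.4, 31.1, 21.8 and 17.02 normalized counts in wild type. Its knock-out values ran from 32.4 through 49.5 to 54.3. The lowest knock-out library lay just above the highest wild-type library. The rise was 0.85 on the log2 scale (SE 0.19, limma adjusted p = 0.000951), or 1.80-fold with a 95% interval of 1.38 to 2.36. It was higher in 6 of 6 knock-out libraries and rested on 126 wild-type and 292 knock-out reads. Cyp26c1, its neighbour on chromosome 19, had 7, 9, 4, 12 and 3 reads in the wild-type libraries, against 11, 10, 14, 15, 20 and 10 in those of the knock-out. The groups overlapped through wild-type replicate 4, which had 13.1 normalized counts. It was called at 0.84 (SE 0.32, adjusted p = 0.0373). The call ended in DESeq2 (0.82, adjusted p = 0.076). It also ended in edgeR on the reads of all genes (0.83, adjusted p = 0.0576), which was not planned. Leaving out a single library also ended it for wild-type replicate 3 (0.69, limma adjusted p = 0.103) and replicate 5 (0.62, adjusted p = 0.113). The same held for knock-out replicate 3 (0.85, adjusted p = 0.0538), replicate 4 (0.82, adjusted p = 0.0648) and replicate 5 (0.74, adjusted p = 0.0842). The authors' deposited table gave it an adjusted p of 0.0877.

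Cyp26b1, the third hydroxylase, stood at 58.7, 63.5, 59.2, 44.7 and 98.1 in wild type and ran from 39.8 through 66.8 to 76.3 in the knock-out. It was not called (-0.03, 95% interval -0.43 to 0.37, adjusted p = 0.908), and wild-type libraries differed by an SD of 30.7% of the mean. Its sign turned when wild-type replicate 5 (0.13) or knock-out replicate 4 (0.09) was left out, and with libraries scaled to their total (0.10), with no call in any of these. Per kilobase of exon, the summed level of the Cyp26 genes was 29.3 ± 1.9 normalized counts in wild type, against 42.6 ± 6.7 in the knock-out. Cyp26a1 went from 44.2% ± 9.2 to 55.3% ± 3.6 of that sum, and Cyp26b1 from 41.4% ± 13.0 to 27.4% ± 3.4. These shares are descriptions and were given no test. On the same scale the Aldh1a sum was 237 ± 27 and 237 ± 23.

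Ratios between synthesis and clearance genes were taken within each library. The log2 ratio of Cyp26a1 to Aldh1a3 reads was 0.68 to 1.54 in wild type and 2.81 to 4.91 in the knock-out, so the genotypes were apart. The ratio of Aldh1a1 to Aldh1a3 was 6.22 to 7.55 and 7.45 to 9.24, with a small overlap. Both rest on the few reads of Aldh1a3. Cyp26a1 was not set against Aldh1a1, so these ratios do not describe synthesis against clearance as a whole.

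The proximal sequence of Cyp26a1 is shown because it carries a direct repeat of the kind that retinoic acid receptors are known to bind, and that of Rarb because it held such a match among the 16 other pathway genes with a promoter in the set used. Promoters of 300 bases from RefSeq (build GRCm38.p6) were searched on both strands for the hexamer AGGTCA or its variants, which were AGTTCA together with GGGTCA and also GGTTCA, occurring as a direct repeat with a spacer of 5 bases. 6 of the 10 genes were in that set, and the repeat was found in 1 of them, Cyp26a1. Of all 32851 promoters, 32 held it, or 0.0974%. Each window below has 27 bases, written 5′ to 3′ on the strand of the repeat, with the hexamers in capitals.
Cyp26a1, GRCm38.p6 chr19:37697771-37697797, minus strand: aaattAGTTCAcccaaAGTTCAtcttt
Rarb, GRCm38.p6 chr14:16575508-16575534, minus strand: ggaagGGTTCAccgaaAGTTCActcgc
Counted from the annotated start used by that set, the Cyp26a1 repeat spans bases -32 to -16 and the Rarb repeat bases -53 to -37. Cyp26a1 is annotated on the plus strand, so its repeat is printed on the strand opposite to the gene. The files carry no coordinates, and the submitters' processing notes name the older build mm9. Of 31 genes with the repeat, 5 were tested and 2 were called, or 40% beside 46.3% of all tested genes. Cyp26a1 was higher in the knock-out and Rarb was lower (228 ± 11 to 177 ± 13, log2 fold change -0.36, SE 0.08, adjusted p = 0.000555). No repeat with a spacer of 1 or 2 bases was found in the promoters of the 6 genes. A match of letters is a description of the sequence only.

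Around the Cyp26c1 and Cyp26a1 pair, Myof and O3far1 on the far side of Cyp26a1 were called higher, beside 23.6% of all tested genes. Myof, which encodes the membrane repair protein myoferlin, went from 279 ± 33 to 657 ± 84 (1.23, SE 0.09, adjusted p = 2.61e-09). O3far1, an omega-3 fatty acid receptor gene, had 2, 0, 5, 4 and 10 reads in wild type and 60 to 103 in the knock-out (4.42, SE 0.46, adjusted p = 2.27e-06). O3far1 met the filter mainly through its knock-out libraries. Cep55 lies between Myof and O3far1, was below the filter and had few reads (3.79 ± 2.08 and 3.69 ± 2.77). On the other side, Exoc6 (-0.14, adjusted p = 0.212) and Kif11 (0.22, adjusted p = 0.319) were not called. Hhex, a homeobox gene below the filter, stood at 3.58 ± 3.06 and 8.71 ± 3.06 and was called higher without the filter (adjusted p = 0.0269).

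Among 22 other genes of the retinoic acid pathway, 16 were tested, of which 5 were higher and 6 lower. That is 68.8%, beside 46.3% of all tested genes. Their median log2 fold change was -0.14 beside -0.01 for all tested genes. With libraries scaled to their total it was -0.005 beside 0.13 for all tested genes, and 6 were called higher and 4 lower. In retinoid supply, Dhrs3, a reductase that turns retinaldehyde back to retinol, had 1573, 1389, 1374, 1444 and 1399 normalized counts in wild type. Its knock-out values ran from 234 through 253 to 299.7. The groups were far apart, and Dhrs3 fell by 2.47 (SE 0.07, adjusted p = 3.96e-16). Rdh10, the dehydrogenase that forms retinaldehyde from retinol, rose from 698 ± 10 to 968 ± 53 (0.47, SE 0.05, adjusted p = 1.6e-07). Rbp4, which encodes the plasma retinol carrier, rose from 11.1 ± 2.7 to 43.5 ± 9.9 (1.88, SE 0.21, adjusted p = 4.1e-07). Stra6 and Lrat were not called.

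The receptors moved in both directions. Rxrg, a retinoid X receptor of cones, stood at 168, 177, 135, 168 and 165 in wild type and ran from 985 through 1109 to 1208 in the knock-out (2.76, SE 0.07, adjusted p = 3.1e-16). It was the only receptor of the 6 called higher. Rxra fell by 0.41 (1403 ± 39 to 1058 ± 52, adjusted p = 4.21e-07). Rarb was lower as given above (-0.36, or -0.23 with libraries scaled to their total). Rara and Rxrb, named after their values were seen, were also called lower (-0.29 and -0.13). Rxrb lost its call when any of wild-type replicates 2 and 4 or knock-out replicates 2, 3 and 5 was absent (-0.13 to -0.10). With libraries scaled to their total, Rara (-0.15) and Rxrb (0.00) were not called, and Rarg was called higher (0.34). Crabp1, a cytosolic carrier of retinoic acid, fell by 0.48 (143 ± 31 to 100.2 ± 7.5, adjusted p = 0.00324). Of the downstream genes, Tgm2, a transglutaminase gene induced by retinoic acid in other cells, rose from 163 ± 14 to 534 ± 66 (1.70, SE 0.09, adjusted p = 6.98e-12). Nrip1, a nuclear receptor corepressor gene, rose by 0.17 (1387 ± 111 to 1562 ± 89, adjusted p = 0.0154), a call that leaving out wild-type replicate 5 ended (0.14, adjusted p = 0.0556). Hoxb1 and Cdx1 are listed at 0 in all 11 libraries.

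**Figure D3:**
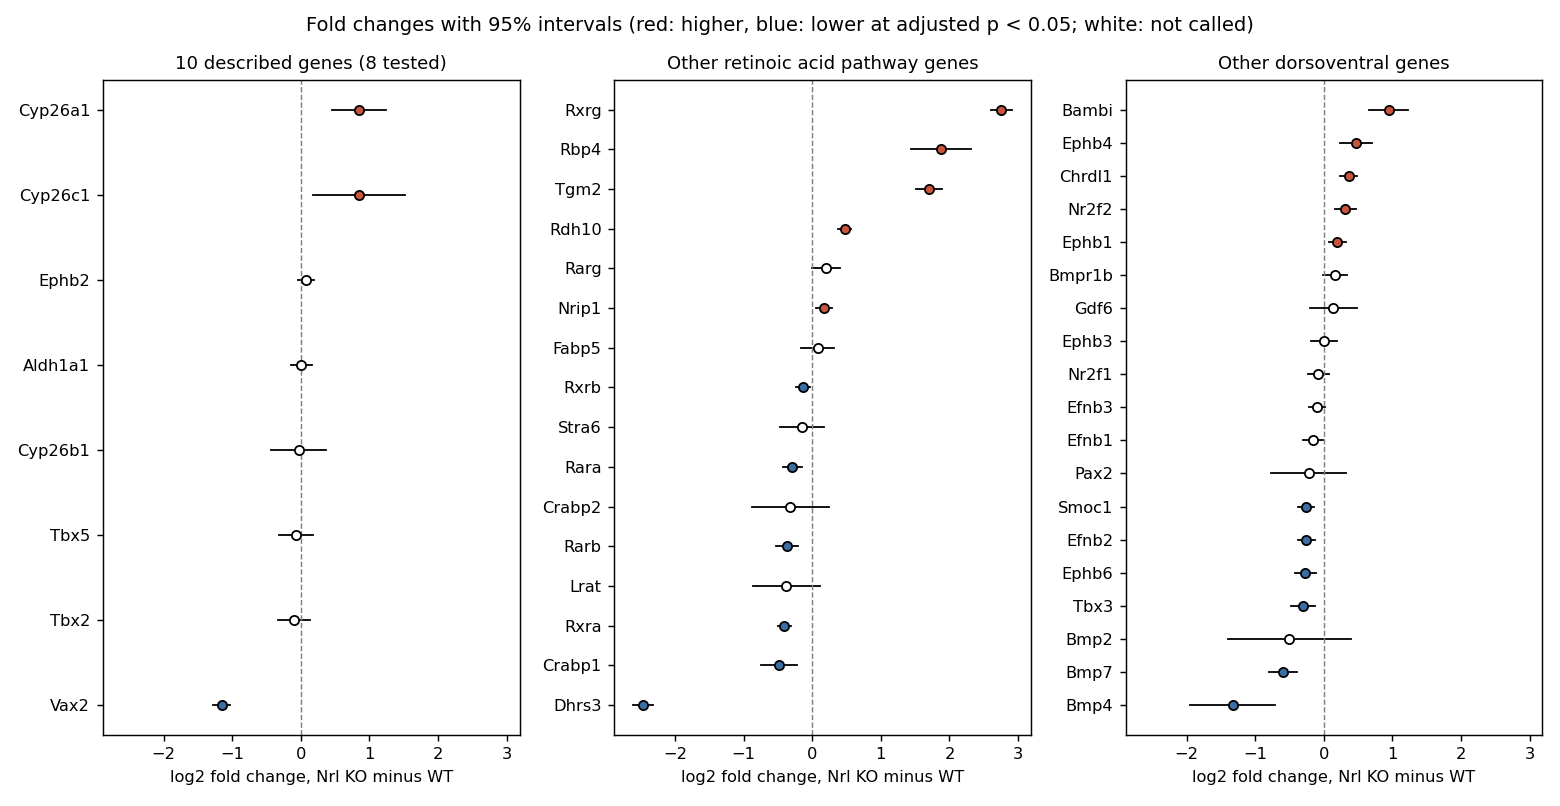
Log2 fold changes (x axis, Nrl knock-out minus wild type) with 95% intervals from limma for the tested genes of the 3 lists. Red points were called higher, blue lower, and white points were not called. Vax2 and Dhrs3 lie at -1.16 and -2.47, and Rxrg at 2.76.

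Among 21 other genes of the dorsoventral axis, 19 were tested, and 5 were higher and 6 lower, or 57.9% beside 46.3% of all tested genes. The median was -0.10 beside -0.01 for all tested genes. With libraries scaled to their total it was 0.04 beside 0.13, and 6 were called higher and 2 lower. Of the 4 BMP family ligands, 2 were called lower, beside 22.7% of all tested genes. Bmp4, the dorsal ligand upstream of Tbx5, had 17, 22, 11, 28 and 19 reads in wild type and 4 to 11 in the knock-out. The groups met at 11 reads, in wild-type replicate 3 and knock-out replicate 4. In normalized counts these stood at 10.7 and 10.2, so the groups just did not overlap, against 30.9% of all tested genes. The log2 fold change was -1.33 (SE 0.29, adjusted p = 0.00108). Bmp4 met the filter mainly through its wild-type libraries, since only replicate 4 of the knock-out reached 10. Bmp7 fell by 0.60 (163 ± 18 to 107 ± 9, adjusted p = 4.73e-05), while Bmp2 (26.6 ± 16.9 and 18.2 ± 10.5) and Gdf6 (24.3 ± 1.5 and 27.2 ± 4.4) were not called. Bambi, which encodes a BMP pseudoreceptor, rose from 109.6 ± 31.96 to 207 ± 13 (0.95, SE 0.13, adjusted p = 1.2e-05). Chrdl1, a secreted antagonist known as ventroptin from the ventral chick retina, rose by 0.36 (583 ± 26 to 749.9 ± 51.8, adjusted p = 2.84e-05). Smoc1, another BMP antagonist gene, and Efnb2, a dorsal ephrin gene, both named after their values were seen, were called lower (-0.26 each), and not with libraries scaled to their total (-0.12 each).

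Of the other factors, Tbx3, a dorsal relative of Tbx2, fell by 0.30 (282 ± 10 to 229.9 ± 30.2, adjusted p = 0.00767). Nr2f2, a dorsal orphan nuclear receptor gene, rose by 0.31 (349 ± 41 to 433 ± 24, adjusted p = 0.00181). The Eph receptor genes Ephb4 and Ephb1 rose by 0.46 and 0.19, and Ephb6 fell by 0.27. With libraries scaled to their total the calls of Tbx3 (-0.17) and Ephb6 (-0.13) ended. On the nasotemporal axis, 2 of 12 tested genes were higher and 3 lower, or 41.7%, near the 46.3% of all tested genes. The difference between the lists was not tested. Epha8 rose from 954 ± 33 to 1974 ± 183 (1.04, SE 0.06, adjusted p = 2.18e-11). Epha6 (-0.34) and Hmx1 (-0.32) fell, though neither was called after scaling by library totals (-0.20 and -0.18).

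The cone opsin genes, whose dorsoventral spread in mouse depends on thyroid hormone receptor and VAX2, were both higher. Opn1sw went from 8151 ± 699 to 111774 ± 11516 normalized counts and Opn1mw from 3007 ± 147 to 6614 ± 748, while Thrb (2379 ± 47 and 2486 ± 46) was called only with libraries scaled to their total (0.20). Bulk libraries hold the whole retina, so they do not show where along the axis any transcript lay.

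The tested genes whose centred log2 values over the 11 libraries lay nearest to those of Vax2 were Pcmtd2, Stard7 and Rgs9bp, with root-mean-square differences of 0.04, 0.06 and 0.06. Their log2 fold changes were -1.16, -1.11 and -1.22. Nearest to Cyp26a1 were Slc14a1, S1pr3 and Fam194a, with differences of 0.19, 0.19 and 0.20 and fold changes of 0.77, 0.85 and 0.87. These differences include that between the genotypes.

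Markers of other cell types were measured beside these genes. The shares called over all tested genes were 23.6% higher and 22.7% lower. Of 9 tested retinal pigment epithelium markers, Pmel (1.74) and Dct (0.99) were called higher and 1 was lower, and the summed level of all 11 ran from 1069 to 1455 in wild type and from 1114 to 1889 in the knock-out. Dct lost its call in 8 of the 11 fits that left out a library, with values of 0.77 to 1.02, wild-type replicates 2 to 5 and knock-out replicates 1, 2, 4 and 6. Of 5 tested choroid and stroma markers, Pdgfra (0.53) and Pdgfrb (0.21) were called higher, Col1a1 and Col1a2 were not, and Lum is listed at 0 throughout. Pdgfrb lost its call in 9 of those 11 fits (0.17 to 0.22), all but those without wild-type replicate 3 or knock-out replicate 1. Of 5 tested ciliary and iris epithelium markers only Opcml (-0.34) was called, and not with libraries scaled to their total (-0.21), and Msx1 was near 0.

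Markers of inner retinal neurons and glia also differed, where 23.6% of all tested genes were called higher and 22.7% lower. Of 9 amacrine markers 8 were lower, led by Th (-0.71) and Chat (-0.46), with summed levels of 26435 to 29664 in wild type and 22363 to 24495 in the knock-out. All 8 ganglion cell markers were lower, led by Pou4f2 and Nefl (-0.38 each). Of 9 Müller glia markers 4 were higher, led by Vim (0.80) and Aqp4 (0.40), and 1 was lower. The lower one was Glul (-0.27), the most abundant of the 9. Their summed level ran from 87191 to 92671 in wild type and from 79055 to 89767 in the knock-out. With libraries scaled to their total, the falls were smaller for Th (-0.58), Chat (-0.33), Pou4f2 and Nefl (-0.24 each), all still called. The rises of Vim (0.94) and Aqp4 (0.54) were larger. The part of these markers in the values of the retinoic acid and dorsoventral genes was not tested.

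**Figure D4:**
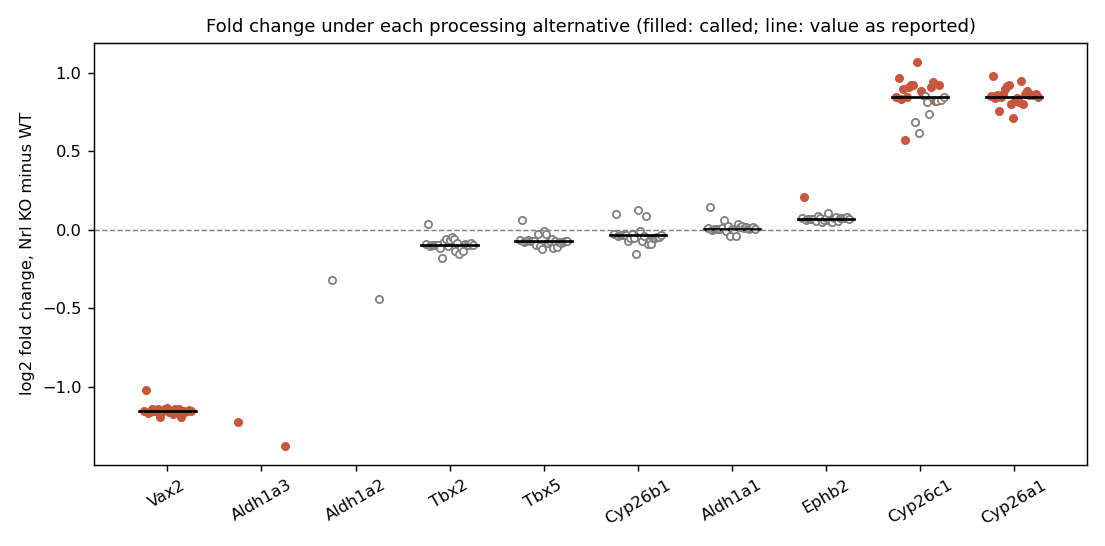
Log2 fold change (y axis, Nrl knock-out minus wild type) of each of the 10 genes under each processing alternative that could give a value. Red points passed that alternative's threshold, white points did not, and black lines are the reported values of the 8 tested genes. Vax2 stays between -1.19 and -1.02 and Cyp26a1 between 0.71 and 0.98, all past the threshold, while Cyp26c1 crosses it.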

How the data were processed

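The authors deposited 1 table of 23284 genes with normalized counts, a signal made by dividing reads per gene by 1 size factor per library, and with their own mean, log2 fold change and adjusted p-value columns, per the file headers. Named in the submitters' processing notes are build mm9, DESeq, HTSeq 0.6.0 and TopHat2 2.1.1. Per the labels' protocols, reads were stranded, single-end and 50 bases long. Both polyA RNA and removal of ribosomal RNA are named. All values of each library were whole multiples of 1 step (tolerance 1e-06), which gave back whole reads, 100% of values in every library. edgeR 4.0.16 with TMM called 6760 genes on these reads. A count of 0 allows up to 3 reads, or 2.61 to 3.59 normalized counts, for counting error only.

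log2(normalized count + 1) was fitted by limma 3.58.1 in R 4.3.3 (trend, robust), with a single term for genotype, on genes with at least 10 normalized counts in at least 5 libraries. Tests were two-sided, with Benjamini-Hochberg adjustment over 14584 genes. Fold changes on this scale understate those of low genes. The step was also run on simulated counts with a single fixed dispersion and few changed genes. These data differ from that setting, so the run does not show how well the calls here hold. Lengths are unions of annotated exons in GENCODE M21. Named genes were the 10 genes, Nrl, up to 8 called genes per list with the most abundant, markers, neighbours and the most alike genes. The 10 genes, the lists and the tests were chosen with earlier results of these data known. Some genes of the retinoic acid list are not reported here and were left out of its counts. Alternatives were DESeq2 1.42.0, edgeR and limma-voom on reads, other scalings, filters, pseudocounts and thresholds, a replicate block, and leaving out libraries.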

Additional observations from a re-analysis of the deposited data

Results flagged for a closer look

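Among 154 groups of values for 78 named genes, 7 had a library whose gap to the nearest other, as a share of the group's range, passed Dixon's critical value (0.71 for 5 libraries, 0.625 for 6), or 4.55%, where chance gives about 1 in 20. None was of the 10 genes. Among these, Aldh1a1 in knock-out replicate 2 (1367, others 1056 to 1181) came near with a gap of 0.596. Cyp26b1 in wild-type replicate 5 (98.1, others 44.7 to 63.5) came near with a gap of 0.65. In wild-type replicate 1, Chat (471, others 394 to 407) and Tex261 (1107, others 963 to 999) stood highest. Rxrg was lowest in wild-type replicate 3 (135, others 165 to 177). In the knock-out, Rarb was highest in replicate 2 (202, others 164 to 178), Ephb4 was lowest in replicate 1 (74.3, others 92.1 to 101.9), Opn1sw lowest in replicate 5 (89893, others 111244 to 121133), and Fam194a highest in replicate 3 (95.8, others 68.5 to 77.4).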

How the results depend on the processing

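Of the named genes, Rxrb was called lower and turned to 0.00397, with no call, when libraries were scaled to their total. With a filter of 50 normalized counts in 5 libraries, 1 of the 10 genes was called (Vax2), since Cyp26a1 and Cyp26c1 no longer met the filter. Leaving out each of 11 libraries in turn gave 2 to 3 calls among the 10 genes, 10 to 11 in the retinoic acid list, 11 to 12 in the dorsoventral list and 6185 to 6741 over all genes, beside 3, 11, 11 and 6752. Scaling to the library total gave 7572 calls over all genes, 5861 higher and 1711 lower (77.4% higher), against 3448 and 3304 (51.1% higher). With the replicate number as a block, in which knock-out replicate 6 has no partner and adds nothing to the difference, 3 of the 10 genes and 6793 genes in all were called, and Lrat was called lower (-0.50, adjusted p = 0.0189). Samples with the same number were not treated as paired in the main fit. Their deviations correlated from -0.13 to 0.22, and 3 of 5 pairs exceeded 0.1. Samples with different numbers correlated from -0.36 (wild-type replicate 1, knock-out replicate 5) to 0.41 (wild-type replicate 1, knock-out replicate 2). These values do not settle whether the samples were paired. The depth limits Aldh1a2, Aldh1a3 and Cyp26c1, which had at most 20 reads in any library.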
